A study of Homo sapiens with 4 samples.

Results

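The genes described here are 31 components and transcriptional targets of the p53 pathway, chosen as a list of symbols, and all 31 were found among the 25283 rows of the deposited expression table. They were followed across 4 RNA-seq libraries made 36 hours after a lentiviral vector was given to cells labelled as neurons, grown from the established embryonic stem cell line H1 through neural induction, differentiation and maturation media. In the U1_OE group (2 libraries, genotype label "snRNA U1 overexpression") the vector drove U1 snRNA, the RNA of the spliceosomal particle that pairs with 5′ splice sites. The control group (2 libraries, genotype label "wild type (empty vector control)") received an empty vector, although the treatment text of both groups names the overexpression vector, and genotype labels and titles decide the grouping here. Separate cultures are not stated for the libraries, and the p-values below measure only their spread, which may be technical. With 2 libraries against 2, an exact permutation test cannot give a two-sided p below 0.333. U1 snRNA itself was not analysed here, so the overexpression was not checked in any library.

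The tumour suppressor p53 is a transcription factor whose protein is held low by the ubiquitin ligase MDM2 and stabilised after DNA damage, ribosomal stress or other insults. Its activity is commonly read from its targets: stabilised p53 raises genes that halt the cell cycle, repair DNA, adjust metabolism and trigger death, together with MDM2, PPM1D and other genes that shut it off again. In neurons, which have left the cell cycle, p53 is best known for its part in damage-induced death, and in dividing mesenchymal cells for arrest through CDKN1A.

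p53 binds a pair of adjacent 10-base units, each made of 3 purines, C, a pair of A or T bases, G and 3 pyrimidines. The pairs found beside a transcription start of the members are shown first, since they are the sequence through which p53 is known to act. RefSeq promoter windows on GRCh38.p14, from 250 bases before to 50 bases after a start, were matched by symbol for 25 of the 31 genes, with 37 windows. Each was searched for 2 adjacent units, keeping C and G at the core of each unit and allowing at most 3 other departures over 20 bases. The unit is its own reverse complement, so a search of 1 strand covers both. Of the 37 windows 7, belonging to 6 genes, held a match, against 392 of all 35116 windows (1.12%). The matched elements follow, read in the direction of the gene, with the core C and G of each unit in capitals.
MDM2: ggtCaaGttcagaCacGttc
DDB2: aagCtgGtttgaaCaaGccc
AEN: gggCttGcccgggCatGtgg
SESN1: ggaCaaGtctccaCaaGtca
FDXR: gggCagGagcgggCttGccc
GDF15: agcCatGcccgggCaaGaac

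The DDB2 element departed from the consensus at 1 base, those of MDM2 and AEN at 2 bases, and those of SESN1, FDXR and GDF15 at 3 bases. A match describes letters and not binding, which was not measured, and the windows do not reach elements farther away, such as those upstream of CDKN1A. The promoters of the 3 genes with at most 2 departures are given in full below, with the element in capitals, as the closest matches. Of the 8 genes described below with an unadjusted edgeR p under 0.05, these 3 had a match, PPM1D, PLK3, TIGAR and TP53I11 had windows with no match, and PHLDA3 had no window. The groups overlapped for SESN1, FDXR and GDF15, which also had a match, so a match did not go with a difference in each case. The MDM2 window is chr12:68808774-68809073 on the plus strand and belongs to a start inside the gene, with the element beginning 101 bases before that start. The DDB2 window is chr11:47214724-47215023 on the plus strand, with the element across the start. The AEN window is chr15:88621090-88621389 on the plus strand, with the element beginning 34 bases before the start.
MDM2: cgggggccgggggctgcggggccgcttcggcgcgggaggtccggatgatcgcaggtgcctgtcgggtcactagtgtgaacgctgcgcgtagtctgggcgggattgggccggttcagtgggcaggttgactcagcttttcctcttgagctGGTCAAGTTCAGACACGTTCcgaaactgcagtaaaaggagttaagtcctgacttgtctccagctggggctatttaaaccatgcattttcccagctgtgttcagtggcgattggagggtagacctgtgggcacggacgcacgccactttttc
DDB2: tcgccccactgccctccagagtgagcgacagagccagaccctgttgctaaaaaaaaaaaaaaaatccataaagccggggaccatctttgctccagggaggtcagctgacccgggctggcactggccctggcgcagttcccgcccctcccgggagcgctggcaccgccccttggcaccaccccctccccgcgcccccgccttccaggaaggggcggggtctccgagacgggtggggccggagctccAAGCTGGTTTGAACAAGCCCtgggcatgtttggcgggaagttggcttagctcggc
AEN: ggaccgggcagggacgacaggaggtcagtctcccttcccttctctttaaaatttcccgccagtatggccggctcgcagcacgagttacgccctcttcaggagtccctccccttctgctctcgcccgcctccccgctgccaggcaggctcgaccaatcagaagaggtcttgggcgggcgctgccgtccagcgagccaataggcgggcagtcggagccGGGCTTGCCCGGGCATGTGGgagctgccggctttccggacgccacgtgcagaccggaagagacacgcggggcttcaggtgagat

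The deposited estimated counts summed to between 16713505 and 19057423 per library. In each library the 2000 lowest values above 0 rise in a single step. These low values have the form of abundances per transcript length scaled to a library total. The values of the members are higher than these, and higher values were not examined for the step. Setting levels in TMM-scaled CPM side by side between genes, as below, assumes the same scaling for them. The label "neuron" was not borne out by defining markers. DCX and RBFOX3 lay under 0.3 CPM in every library, DCX was at 0 in U1_OE replicate 1 and control replicate 1, and STMN2 was at 0 in control replicate 2, whereas all 12 mesenchymal markers were above 10 CPM everywhere, with medians of 1639 and 977 CPM in U1_OE libraries and 1065 and 1374 CPM in control libraries. The measurements below are therefore of cultures in which mesenchymal markers were high and defining neuron markers were near 0, and the share of each cell type was not measured. Neural markers were not all absent. SNAP25 had 5.53 to 8.18 CPM and MAP2 2.64 to 6.6 CPM over the 4 libraries. Of 5 measured neural progenitor markers, NES had 24.3 to 44.5 CPM and PAX6 5.58 to 19.7 CPM, while SOX2, PROM1 and FABP7 were at most 4.28 CPM. In bulk RNA, fewer cells that express a gene and less RNA per cell cannot be told apart. TUBB3, a neuronal tubulin that other cell types can also express, was the 1 neuron marker above 10 CPM and moved with the groups, with 264 and 338 CPM in U1_OE libraries, against 159 and 104 CPM in control libraries (DESeq2 adjusted p = 0.00134; edgeR adjusted p = 0.459). The other 9 measured neuron markers summed to 21.6 and 15.8 CPM in U1_OE libraries and to 19.3 and 11.3 CPM in control libraries, and their part in the results below was not tested.

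The p53 pathway was expressed throughout. All 31 genes were above 1 CPM in every library, and all passed the filter on low values. CDKN1A, which encodes the cyclin-dependent kinase inhibitor p21, stood far above the rest with a mean of 1056 CPM over the 4 libraries, and ranked 104 and 130 among all genes in U1_OE libraries and 131 and 171 in control libraries. GDF15, a stress-induced cytokine, and TP53I11, a p53-induced membrane protein, followed with 151 CPM each, then CCNG1 (133 CPM), PLK2 (106 CPM) and PHLDA3 (96.6 CPM). MDM4, the MDM2-related inhibitor of p53, was lowest with 5.02 CPM. The lowest CDKN1A library, at 766 CPM, was above the highest library of any other member, TP53I11 at 284 CPM.

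**Figure D1:**
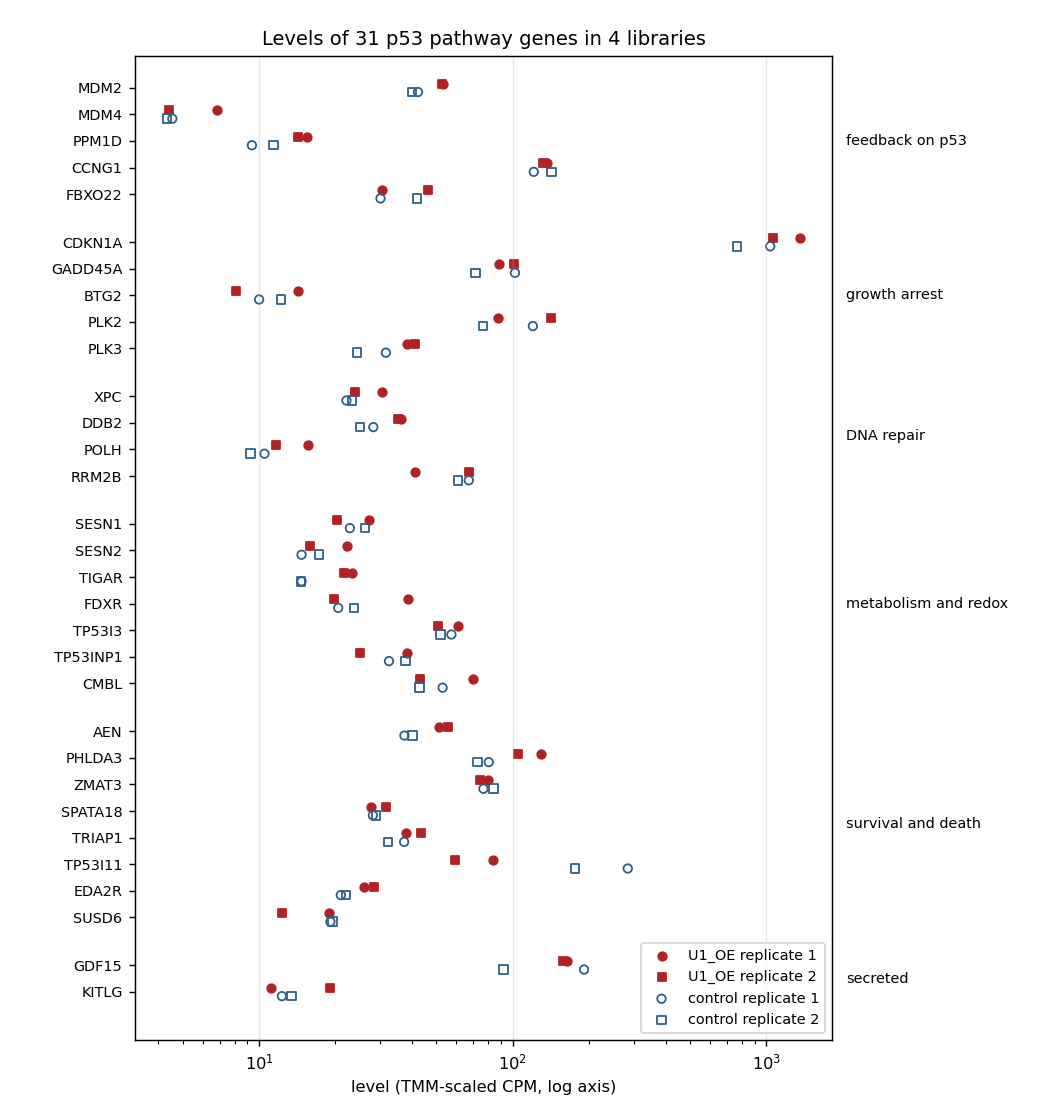
Level of each of the 31 genes in each of the 4 libraries, as TMM-scaled CPM on a log axis, by role; filled red symbols are U1_OE and open blue symbols control libraries. CDKN1A stands apart at 1056 CPM on average, and TP53I11 is the gene whose groups lie farthest from each other.

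The comparison asks which genes differ with U1 snRNA overexpression. No gene of the pathway passed the test over all 17317 genes (edgeR's quasi-likelihood test, Benjamini-Hochberg adjusted p under 0.05), which called 0% of all genes, so the values that follow are measured differences and not called changes. The members leaned upward as a list: 25 log2 fold changes were positive and 6 negative (median 0.23), whereas 49.3% of all genes tested were positive (median -0.01). An unadjusted edgeR p under 0.05 was reached by 8 of the 31 genes (25.8%), 7 with higher and 1 with lower values in U1_OE, against 9.08% of all genes (4.36% higher and 4.72% lower). The groups did not overlap for 14 of the 31 genes, a share close to the 41.7% of all genes. Groups that do not overlap therefore do not by themselves mark out a member. Both U1_OE libraries lay above both control libraries for 12 genes (38.7%, against 19.7% of all genes), and below for 2 genes (6.45%, against 22.1%). Without control replicate 2 the count was 1 of 31 (3.23%), against 4.32% of all genes, so the members did not stand above the background there. Without control replicate 1 it was 4 (12.9%, against 4.65%), and by DESeq2 it was 5 (16.1%, against 7.11%). These are counts over a list whose members were picked with earlier results known, and they carry no test of the list.

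**Figure D2:**
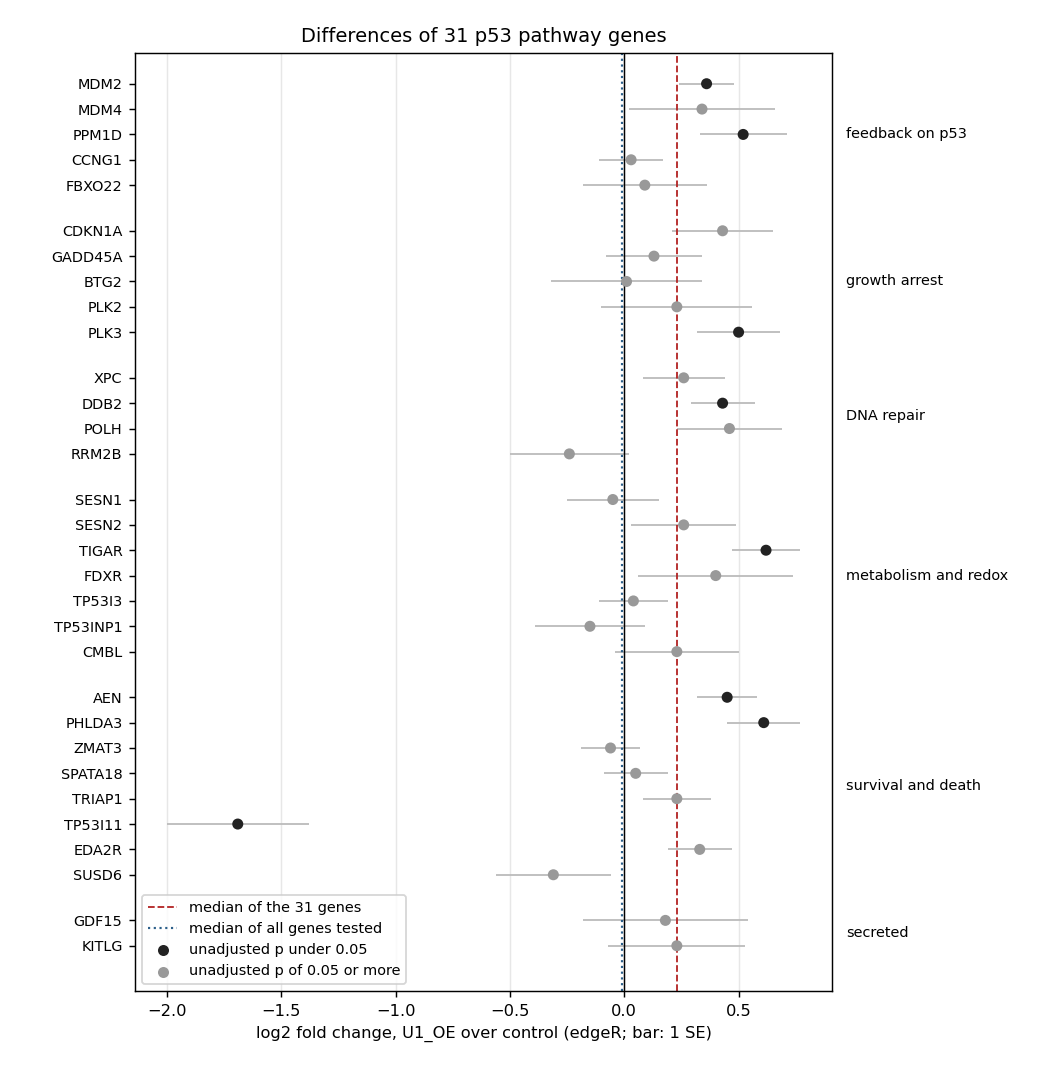
edgeR log2 fold change of U1_OE over control for each of the 31 genes, with 1 standard error, by role; black points have an unadjusted p under 0.05. Most points lie to the right of 0, with a median of 0.23 (dashed line), and TP53I11 lies alone at -1.69.

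Among the genes that feed back on p53, MDM2 had 53 and 52.5 CPM in U1_OE libraries, against 42.3 and 40.1 CPM in control libraries. The groups did not overlap, and the libraries of each group were close to each other. The log2 fold change was 0.36 ± 0.12 (SE), a 1.28-fold difference (edgeR adjusted p = 0.521), and it was 0.32 to 0.42 with each library left out. PPM1D, the phosphatase that removes damage-induced phosphate groups from p53 and its kinases, had 15.5 and 14.3 CPM in U1_OE libraries, against 9.37 and 11.4 CPM in control libraries. Its groups did not overlap either, with a log2 fold change of 0.52 ± 0.19 (edgeR adjusted p = 0.535). MDM4 had 6.81 and 4.41 CPM in U1_OE libraries, against 4.55 and 4.33 CPM in control libraries, so U1_OE replicate 1 alone was high and the groups overlapped (log2 fold change 0.34 ± 0.32). CCNG1, a cyclin that brings a phosphatase to MDM2, and FBXO22, an F-box protein that directs p53 to degradation, had log2 fold changes of 0.03 ± 0.14 and 0.09 ± 0.27. CCNG1 had 137 and 132 CPM in U1_OE libraries, against 121 and 142 CPM in control libraries. FBXO22 had 30.4 and 46.2 CPM in U1_OE libraries, against 30.1 and 42 CPM in control libraries, so in both groups replicate 2 was the higher.

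Of the growth arrest genes, CDKN1A had 1360 and 1064 CPM in U1_OE libraries, against 1035 and 766 CPM in control libraries. The lower U1_OE library was only just above the higher control library, and its mean was 1212 ± 209 CPM in U1_OE and 901 ± 191 CPM in control libraries (SD, n = 2 each). The log2 fold change was 0.43 ± 0.22 (edgeR adjusted p = 0.628), and it was 0.25 without U1_OE replicate 1, 0.59 without U1_OE replicate 2, 0.68 without control replicate 1 and 0.23 without control replicate 2. Reads of CDKN1A can be shared with the antisense RNA DINOL, which overlaps its exons but was at most 0.582 CPM. PLK3, a polo-like kinase of the stress response, had 38.3 and 41.1 CPM in U1_OE libraries, against 31.6 and 24.3 CPM in control libraries. Its groups did not overlap (log2 fold change 0.50 ± 0.18, edgeR adjusted p = 0.524). Its relative PLK2 had 87.4 and 142 CPM in U1_OE libraries, against 120 and 76.2 CPM in control libraries, and the groups overlapped (log2 fold change 0.23 ± 0.33). GADD45A, which binds PCNA and slows the cell cycle, had 88.2 and 101 CPM in U1_OE libraries, against 102 and 71.3 CPM in control libraries. The antiproliferative gene BTG2 had 14.3 and 8.08 CPM in U1_OE libraries, against 10.0 and 12.2 CPM in control libraries. Both genes overlapped between groups, with log2 fold changes of 0.13 ± 0.21 and 0.01 ± 0.33, and the sign of BTG2 turned under 5 of the 8 alternatives that kept all libraries.

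For DNA repair, DDB2, which recognises ultraviolet lesions in chromatin, had 36.4 and 35.2 CPM in U1_OE libraries, against 28.2 and 25 CPM in control libraries. The groups were apart, with a log2 fold change of 0.43 ± 0.14 (edgeR adjusted p = 0.507). POLH, the polymerase that copies past ultraviolet lesions, had 15.6 and 11.7 CPM in U1_OE libraries, against 10.5 and 9.26 CPM in control libraries, and XPC, a sensor of bulky lesions, had 30.4 and 23.9 CPM in U1_OE libraries, against 22.1 and 23.2 CPM in control libraries. The log2 fold changes were 0.46 ± 0.23 for POLH and 0.26 ± 0.18 for XPC. Both values are uncertain, because exons of each overlap a gene on the opposite strand and strand use in counting is not stated. GTPBP2, which overlaps POLH, had 37.5 and 42.8 CPM in U1_OE libraries, against 38.6 and 40.1 CPM in control libraries, and so stood above POLH. LSM3, which overlaps XPC, had 9.08 and 11.4 CPM in U1_OE libraries, against 11.1 and 8.79 CPM in control libraries. For POLH and XPC themselves, U1_OE replicate 1 was the highest library and the other U1_OE library lay close to the controls. RRM2B, the p53-induced subunit of ribonucleotide reductase, had 41.1 and 67.3 CPM in U1_OE libraries, against 67.1 and 60.8 CPM in control libraries. U1_OE replicate 1 alone was low there, and the log2 fold change of -0.24 ± 0.26 became 0.09 without it.

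In the group of metabolic and redox genes, TIGAR had the steadiest difference. TIGAR, a bisphosphatase that slows glycolysis, had 23.2 and 21.7 CPM in U1_OE libraries, against 14.7 and 14.6 CPM in control libraries. The groups were well apart, with a log2 fold change of 0.62 ± 0.15, a 1.53-fold difference (edgeR adjusted p = 0.459), and 0.58 to 0.66 with each library left out. FDXR, the reductase that supplies electrons to mitochondrial enzymes, had 38.6 and 19.7 CPM in U1_OE libraries, against 20.5 and 23.7 CPM in control libraries. Here a single library carried the difference, and the log2 fold change of 0.40 ± 0.34 became -0.15 without U1_OE replicate 1. The sestrins, which restrain mTORC1, differed in sign: SESN1 had -0.05 ± 0.20 and SESN2 0.26 ± 0.23 on the log2 scale, and both had overlapping groups. SESN1 had 27.2 and 20.2 CPM in U1_OE libraries, against 22.8 and 26.2 CPM in control libraries, and SESN2 had 22.3 and 15.9 CPM in U1_OE libraries, against 14.7 and 17.2 CPM in control libraries. TP53I3, a quinone oxidoreductase, TP53INP1, a stress protein of p53 and autophagy, and CMBL, a hydrolase, had 0.04 ± 0.15, -0.15 ± 0.24 and 0.23 ± 0.27, and each turned sign in at least 1 fit with a library left out. Their levels were 60.9 and 50.9 CPM for TP53I3, 38.2 and 25.1 CPM for TP53INP1 and 69.7 and 43 CPM for CMBL in U1_OE libraries. In control libraries TP53I3 had 57.3 and 51.8 CPM, TP53INP1 32.5 and 37.8 CPM, and CMBL 52.9 and 42.9 CPM. FAM228B, which overlaps exons of TP53I3 on the opposite strand, had 5.74 and 5.73 CPM in U1_OE libraries, against 12.6 and 5.45 CPM in control libraries. In U1_OE libraries replicate 1 was the higher for all 3.

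The genes of survival and death ranged in log2 fold change between -1.69 for TP53I11 and 0.61 for PHLDA3. PHLDA3, which blocks the kinase AKT at the membrane, had 129 and 105 CPM in U1_OE libraries, against 80.4 and 72.6 CPM in control libraries. The groups did not overlap, with a log2 fold change of 0.61 ± 0.16, a 1.53-fold difference (edgeR adjusted p = 0.459; DESeq2 adjusted p = 0.138). AEN, a nuclease of apoptotic cells, had 51.1 and 55.3 CPM in U1_OE libraries, against 37.4 and 40.3 CPM in control libraries. It too was apart between groups, with 0.45 ± 0.13 (edgeR adjusted p = 0.481) and 0.39 to 0.52 with each library left out. EDA2R, a receptor of the tumour necrosis factor family, and TRIAP1, a small inhibitor of apoptosis, also had both U1_OE libraries above both controls, with 0.33 ± 0.14 and 0.23 ± 0.15. EDA2R had 25.8 and 28.4 CPM in U1_OE libraries, against 21 and 22 CPM in control libraries, and TRIAP1 had 37.9 and 43.6 CPM in U1_OE libraries, against 37.3 and 32.3 CPM in control libraries. SUSD6, a membrane protein induced by p53, had both U1_OE libraries below both controls, with 18.8 and 12.3 CPM in U1_OE libraries, against 19.1 and 19.5 CPM in control libraries, but U1_OE replicate 1 was next to the controls (log2 fold change -0.31 ± 0.25). ZMAT3, an RNA-binding regulator of splicing, and SPATA18, which acts in mitochondrial quality control, had -0.06 ± 0.13 and 0.05 ± 0.14. ZMAT3 had 79.7 and 74.4 CPM in U1_OE libraries, against 76.6 and 83.9 CPM in control libraries, and SPATA18 had 27.5 and 31.5 CPM in U1_OE libraries, against 28.1 and 28.9 CPM in control libraries.

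TP53I11 (chromosome 11, 44885903 to 44951306, minus strand, GRCh38) differed most and in the opposite direction. It had 83.5 and 59.1 CPM in U1_OE libraries, against 284 and 176 CPM in control libraries. The higher U1_OE library was below the lower control library, and the means were 71.3 ± 17.3 CPM in U1_OE and 230 ± 76.6 CPM in control libraries (SD, n = 2 each). The log2 fold change was -1.69 ± 0.31 by edgeR, which did not call it (adjusted p = 0.459), and -1.68 ± 0.29 by DESeq2, which did (adjusted p = 6.42e-06). DESeq2 called 1.08% of all genes, 0.614% higher and 0.47% lower, and TP53I11 was its only call among the 31. Without control replicate 1 the DESeq2 value was -1.29 and the call was lost (adjusted p = 0.0719), and it held without each other library, with values from -1.99 to -1.46. TSPAN18, which overlaps exons of TP53I11 on the opposite strand, was at most 0.779 CPM in any library. With strand use not stated, reads of the overlap cannot be assigned.

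The secreted factors overlapped between groups. GDF15 had 163 and 158 CPM in U1_OE libraries, against 191 and 92.0 CPM in control libraries, so the U1_OE libraries lay between the controls. KITLG, the stem cell factor, had 11.1 and 19 CPM in U1_OE libraries, against 12.3 and 13.4 CPM in control libraries, with U1_OE replicate 1 lowest and U1_OE replicate 2 highest of the 4. The log2 fold changes were 0.18 ± 0.36 for GDF15 and 0.23 ± 0.30 for KITLG.

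The members varied among replicates by amounts close to the group differences. Between the U1_OE libraries the median ratio of the higher to the lower level was 1.27-fold, and 10 of 31 genes differed by at least 1.5-fold, with FDXR at the top (1.96-fold). Between the control libraries the median was 1.15-fold and 3 genes passed 1.5-fold, with GDF15 at the top (2.08-fold). In U1_OE replicate 1 the level was higher than in U1_OE replicate 2 for 21 of the 31 genes. In the 7 genes with an unadjusted p under 0.05 and higher values, the U1_OE libraries were within 1.23-fold of each other. Their control libraries were within 1.3-fold. A small p favours genes with close replicates, so this closeness came partly with the choice of genes. Of the 7 genes, MDM2, PLK3, TIGAR and PHLDA3 have exons that overlap another annotated gene, so reads of the overlaps cannot be assigned. Most of the overlapping genes have no row in the deposited table, so their levels could not be set beside these values. A gene opposite MDM2 that has a row was at most 0.39 CPM, but AC025423.2 and AC025423.4, which also overlap MDM2, have none. All 7, and CDKN1A, kept a positive log2 fold change under each of the 13 settings run, as did 6 other genes, while 15 genes changed sign in at least 1 setting. None of the 7 kept an unadjusted p under 0.05 in every setting. The number of settings in which it was reached ran from 5 for PPM1D to 12 for PHLDA3.

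**Figure D3:**
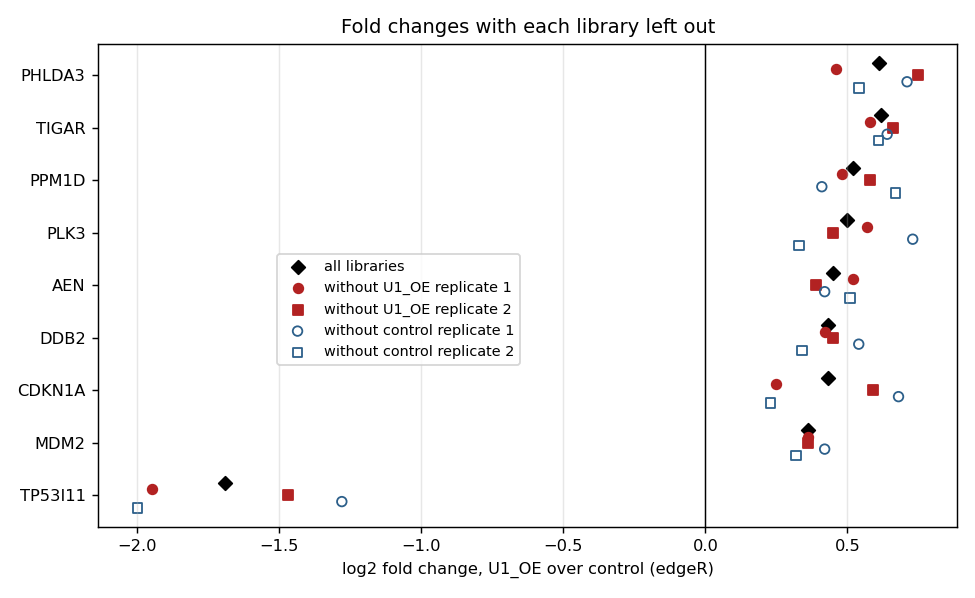
edgeR log2 fold change of U1_OE over control for the 8 genes with an unadjusted p under 0.05 and for CDKN1A, with all libraries (black) and with each library left out. MDM2 and TIGAR move least (0.32 to 0.42 and 0.58 to 0.66), CDKN1A spans 0.23 to 0.68, and TP53I11 stays between -2.0 and -1.28.

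The rest of the pathway was described by 3 further lists. Of 27 genes in a list of upstream regulators, 25 were tested, 15 positive and 10 negative, with a median of 0.03, 0 calls by edgeR or DESeq2 and 2 with an unadjusted p under 0.05 (8%, against 9.08% of all genes, so no more than the background). These were DAXX, a histone chaperone that bridges MDM2 and its deubiquitinase, with 36.9 and 46.9 CPM in U1_OE libraries against 29.1 and 23.1 CPM in control libraries, and NPM1, the nucleolar protein that can bind MDM2, with 824 and 852 CPM in U1_OE libraries against 647 and 607 CPM in control libraries. ATR, the kinase that answers replication stress, came next with 12.3 and 12.5 CPM in U1_OE libraries, against 8.88 and 10.0 CPM in control libraries (0.39 ± 0.18). Both U1_OE libraries were above both controls in all 3, which were picked for their small p. Over the 25 tested regulators this held for 7 (28%, against 19.7% of all genes). Both U1_OE libraries were below both controls for 4 (16%, against 22.1%).

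Of 46 tested direct targets outside the main list, 31 were positive and 15 negative, with a median of 0.08. edgeR and DESeq2 called 0 of them, and 8 had an unadjusted edgeR p under 0.05, which is 17.4% against 9.08% of all genes, 5 higher and 3 lower. Both U1_OE libraries were above both controls for 13 of the 46 (28.3%, against 19.7% of all genes). They were below both controls for 6 (13%, against 22.1%). TRIM5, a restriction factor that recognises retroviral capsids, had the smallest p, with 30.8 and 34.7 CPM in U1_OE libraries, against 22.9 and 21.5 CPM in control libraries (log2 fold change 0.56 ± 0.15, edgeR adjusted p = 0.459). IER5, an immediate early gene, had 39.5 and 40.9 CPM in U1_OE libraries, against 51.8 and 51.4 CPM in control libraries (-0.36 ± 0.12). ANKRA2, an ankyrin repeat protein, had 12.9 and 14.4 CPM in U1_OE libraries, against 18.1 and 20.5 CPM in control libraries (-0.50 ± 0.17), so values of both signs were among the 8. BAX, which opens the mitochondrial membrane in apoptosis, had 175 and 173 CPM in U1_OE libraries, against 179 and 156 CPM in control libraries, and did not separate the groups.

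**Figure D4:**
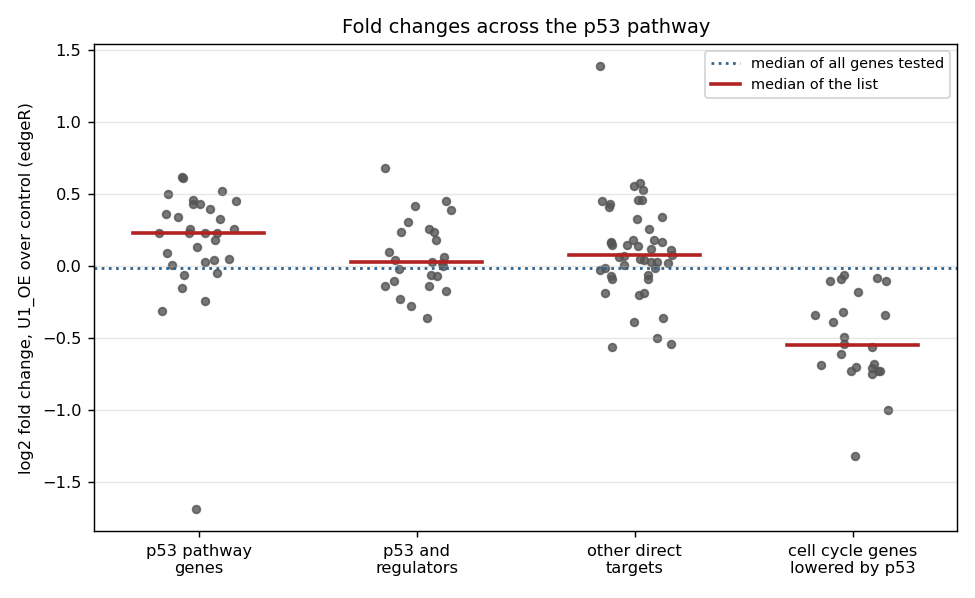
edgeR log2 fold change of U1_OE over control for the tested genes of 4 lists, with the list median (red) and the median of all genes tested (dotted). The 31 p53 pathway genes have a median of 0.23, regulators 0.03, other direct targets 0.08 and cell cycle genes -0.55.

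Active p53 lowers many cell cycle genes through p21 and the DREAM repressor complex. All 24 listed genes of this kind, 1 of which (CHEK1) is also in the list of regulators, had a negative log2 fold change (median -0.55), and edgeR and DESeq2 called 0 of them. CDK1, the kinase that drives mitosis, had 1.74 and 4.04 CPM in U1_OE libraries, against 5.83 and 8.68 CPM in control libraries, and was the only one with an unadjusted p under 0.05, which is 4.17% against 9.08% of all genes (log2 fold change -1.32 ± 0.49, edgeR adjusted p = 0.534). MYBL2 and MCM5, genes of proliferation and replication, had -1.0 ± 0.54 and -0.75 ± 0.41. The list was not uniform within groups, since its median level was 2.74 and 5.99 CPM in U1_OE libraries and 4.83 and 7.69 CPM in control libraries, and U1_OE replicate 2 was above control replicate 1. Only 4 of the 24 genes (16.7%, against 22.1% of all genes) had both U1_OE libraries below both controls. The median was -0.03 without U1_OE replicate 1, -1.33 without U1_OE replicate 2, -0.84 without control replicate 1 and -0.09 without control replicate 2, and 11 and 9 of the 24 genes were positive without U1_OE replicate 1 and control replicate 2.

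Library by library, the 31 genes kept a different order from the cell cycle genes. Centred on each gene's mean over the 4 libraries, their median was 0.18 and 0.11 in U1_OE libraries and -0.11 and -0.12 in control libraries on the log2(CPM + 0.5) scale, so both U1_OE libraries were above both controls. The same order held, with smaller values, in 2 other lists. The upstream regulators had 0.01 and 0.06 in U1_OE libraries and -0.02 and -0.05 in control libraries. The other direct targets had 0.04 and 0.02 in U1_OE libraries and -0.02 and -0.09 in control libraries. The order is therefore not particular to the 31 genes. For the cell cycle genes the centred median was -0.85 and 0.30 in U1_OE libraries and -0.05 and 0.57 in control libraries. The mesenchymal markers were ordered by group as the members were: their centred median was 0.29 and 0.05 in U1_OE libraries and -0.29 and -0.03 in control libraries. Of these 12 markers, 6 had both U1_OE libraries above both controls and 0 had both below, against 19.7% and 22.1% of all genes. An unadjusted edgeR p under 0.05 with higher values in U1_OE was reached by 4 (THY1, PDGFRB, POSTN and TAGLN), against 4.36% of all genes. COL1A2, COL3A1 and FN1 of the same list had negative log2 fold changes (-0.04, -0.08 and -0.17). POSTN, a matrix protein of fibroblasts, had 273 and 230 CPM in U1_OE libraries, against 72.4 and 142 CPM in control libraries, and DESeq2 called it higher (adjusted p = 0.00938; edgeR adjusted p = 0.481). TAGLN, an actin-binding protein of contractile cells, had 197 and 401 CPM in U1_OE libraries, against 114 and 40.4 CPM in control libraries. The summed level of all 12 was 94220 and 86157 CPM in U1_OE libraries and 78038 and 89230 CPM in control libraries, which overlapped. Whether any of these lists follows the makeup of the cultures was not tested.

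**Figure D5:**
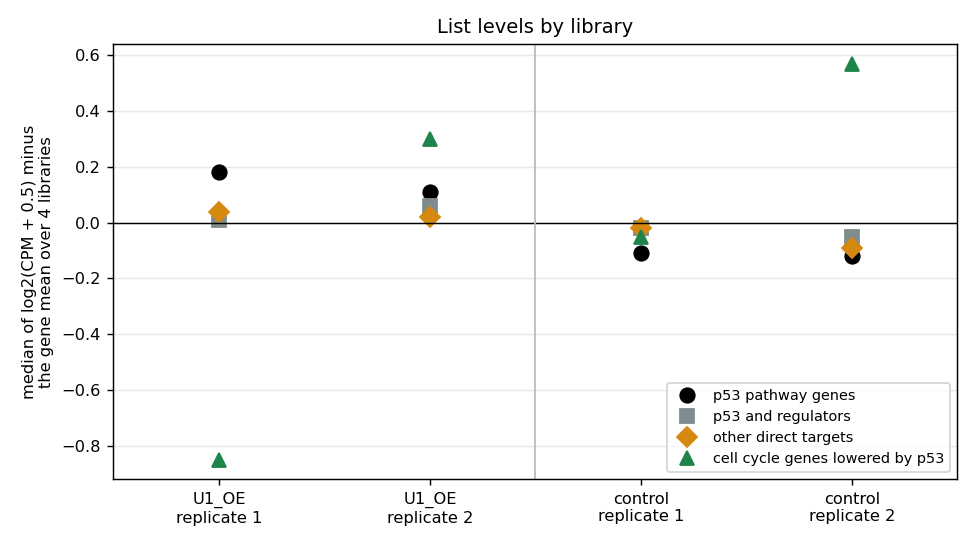
Median over each list of log2(CPM + 0.5) minus the gene's mean over the 4 libraries, for each library, U1_OE on the left and control on the right. The p53 pathway genes are at 0.18 and 0.11 in U1_OE and at -0.11 and -0.12 in control libraries, and the cell cycle genes span -0.85 to 0.57 with U1_OE replicate 1 lowest.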

How the data were processed

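The authors' deposited table holds estimated counts per gene for 4 libraries. The submitters' processing notes name the hg38 build and the tools STAR, featureCounts, Trim Galore and DESeq2, with no versions or roles. In every library the 2000 lowest values above 0 were all whole multiples of a single step, within 0.05 of a step. In genes with 1 annotated transcript the smallest value above 0 was 0.642 to 1.10 for transcripts under 700 bases and 0.168 to 0.453 for those over 3500 bases. These low values have the form of abundances per length scaled to a library total, not of reads, and higher values were not examined for the step. No counting interval is therefore given, and the number of libraries limits the precision.

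Rounded values were tested in edgeR 4.0.16 (R 4.3.3) with filterByExpr, TMM scaling and the quasi-likelihood test over 17317 genes. P-values were adjusted by Benjamini-Hochberg over all of them, and 0.05 was the threshold. Standard errors were worked back from the F statistic. Alternatives were DESeq2 1.42.0, limma-voom (limma 3.58.1), other scalings and filters, a replicate block and each library left out. Added after the values were seen were limma on log2 CPM with a prior count of 2, the count of unadjusted p under 0.05 under each setting, and DESeq2 with each library left out or with a block. The procedures were run on simulated whole-number counts, which differ in form from the deposited values. That run therefore does not check the tests on values of the deposited form. Strand use in counting is not stated, and 12 of the 31 genes overlap exons of another gene in GENCODE v29. These are CDKN1A, FBXO22, KITLG, MDM2, PHLDA3, PLK3, POLH, SESN1, TIGAR, TP53I11, TP53I3 and XPC.

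Every member is accounted for. By rule, full statistics are given for CDKN1A, MDM2 and each member with an unadjusted edgeR p under 0.05 or a DESeq2 call, levels and log2 fold changes for the other members, and the 3 genes of smallest edgeR p in each further list; 1 other gene that the rule names is not reported here. BAX, the cell type markers with values by library and the overlapping genes were chosen after their values were seen. The members and lists were chosen with earlier results of these data known.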

Additional observations from a re-analysis of the deposited data

How the results depend on the processing

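DESeq2 called 189 genes and 1 of the 31 members (TP53I11), where edgeR called 0 of both. The DESeq2 total was 80 with a replicate block and 55 to 322 with a library left out. The count of members with an unadjusted p under 0.05, 8 in edgeR with all libraries, was 5 by DESeq2 (16.1%, against 7.11% of all genes), 4 with the replicate block (12.9%, against 6.19%) and 1 to 7 with a library left out. The lowest, without control replicate 2, was 3.23% against 4.32% of all genes. Same-numbered libraries deviated from their group means with a correlation of -0.082 over 17317 genes. With 2 libraries per group this cannot decide whether the replicate numbers pair the libraries. edgeR called 0 genes with the block and 0 without it. For the cell cycle genes replicate 2 had the higher median level in both groups. It was 2.74 and 5.99 CPM in U1_OE libraries and 4.83 and 7.69 CPM in control libraries. The cause of the differences among settings was not tested.

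With a library left out, the median log2 fold change was 0.16 to 0.32 for the 31 members, -0.05 to 0.11 for the regulators, 0.08 to 0.14 for other direct targets and -1.33 to -0.03 for cell cycle genes. With library size alone, where the median of all genes was -0.04, the regulators had -0.01, CCNG1 -0.01, BTG2 -0.03 and TP53I3 -0.00. BTG2 was also negative by limma on log2 values (-0.04), limma-voom (-0.07), a mean of at least 50 counts (-0.01) and the replicate block (-0.04). Of 41 named genes, 26 kept their sign under every setting run. The other 15 changed sign with a library left out, over ranges of -0.06 to 0.15 for CCNG1, -0.25 to 0.37 for FBXO22, -0.11 to 0.43 for GADD45A, -0.44 to 0.36 for BTG2, -0.17 to 0.61 for PLK2, -0.64 to 0.09 for RRM2B, -0.26 to 0.14 for SESN1, -0.15 to 0.80 for FDXR, -0.09 to 0.16 for TP53I3, -0.47 to 0.12 for TP53INP1, -0.14 to 0.54 for CMBL, -0.10 to 0.01 for ZMAT3, -0.06 to 0.16 for SPATA18, -0.26 to 0.82 for GDF15 and -0.21 to 0.57 for KITLG.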
